A study of Mus musculus with 2 samples.

Results

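Cadherins and non-clustered protocadherins were taken as all autosomal protein-coding genes whose symbol is Cdh or Pcdh followed by a number, in the RefSeq table of GRCm38.p6, the assembly of mm10. The rule found 33 genes of 20665, and 31 of them had a loop in at least 1 of 2 deposited Hi-C loop lists. Hi-C joins and sequences DNA segments that lie close together in the nucleus. The lists came from mouse cerebral cortex of the operated side after middle cerebral artery occlusion (MCAO), in which a filament closed the artery for 1 h and the tissue was taken after 6 h of reperfusion, or after sham surgery without the filament and the same 6 h of recovery. The labels speak of 3 cortices per group, but each group had 1 list, so no difference below has a replicate check and no p-value is given. The labels name no strain, sex or age of the mice. The samples came from the territory of the blocked artery, per the labels. The tissue is a mixture of cells, so fewer cells of a type with a loop and fewer contacts per cell cannot be told apart. Loop lists hold no expression values, and the tissue label was not checked against marker genes.

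Cadherins are calcium-dependent adhesion proteins of the cell surface. Classical cadherins bind the same or a similar cadherin on the next cell through their outermost domain and hold the actin skeleton through catenins. Type I and type II members differ in that domain, and many type II cadherins mark subsets of neurons and their synapses. Protocadherins bind more weakly, do not hold catenins in the same way and take part in the sorting of axons and synapses. Those outside the clustered alpha, beta and gamma arrays each have a gene and promoter of their own, and many lie in long stretches without other genes (gene deserts).

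A loop joins 2 anchors, and its strength is a count of paired-end tags (PETs), the read pairs that connect both. A loop was assigned to the ends of a gene if an anchor lay within 2.5 kb of either end, and otherwise to the gene body if an anchor overlapped the gene. Spans are distances between anchor midpoints. The lists held 14779 loops for sham and 15592 for MCAO, from 34974213 and 40550536 PETs, a depth ratio of 1.16. Every listed loop had at least 10 PETs. On the autosomes the number of loops was 14510 in sham and 15384 in MCAO (ratio 1.06, 95% interval 1.04 to 1.08). This and all further intervals are exact binomial or order-statistic intervals that cover counting error only.

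Promoters of 21 of the 33 genes were in the RefSeq promoter table of GRCm38.p6, as windows from 250 bases before to 50 after the transcription start. Promoter loops are those with an anchor within 2.5 kb of such a window. Of these genes 6 had more promoter loops in MCAO and 9 had fewer. No share over all promoters is given here. For loops at either gene end, 46.7% of all autosomal genes with such a loop had more in MCAO and 33.4% fewer. The windows of 4 genes are shown as examples of a start at or near an anchor in both lists. Loops were more in MCAO at 3 of them and fewer at Cdh10, and the 4 were chosen after these values were seen. Others fit the same description, such as Pcdh7 with 5 and 3 promoter loops and Pcdh20 with 3 and 1. An anchor covered the Pcdh10 window or lay within 2.5 kb of it in 5 sham and 7 MCAO loops. For Cdh8 this held in 2 and 4, for Pcdh9 in 3 and 6, and for Cdh10 in 3 and 2. Each sequence runs 5′ to 3′ along its gene, and capitals mark CG, the pair that carries most DNA methylation in mammals.
Pcdh10: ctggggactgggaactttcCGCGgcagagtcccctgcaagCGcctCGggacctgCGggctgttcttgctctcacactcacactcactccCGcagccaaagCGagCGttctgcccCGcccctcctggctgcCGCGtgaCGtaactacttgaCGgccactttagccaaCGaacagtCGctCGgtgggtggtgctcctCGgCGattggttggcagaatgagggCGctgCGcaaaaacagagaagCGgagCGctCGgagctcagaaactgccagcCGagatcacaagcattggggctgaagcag
Cdh8: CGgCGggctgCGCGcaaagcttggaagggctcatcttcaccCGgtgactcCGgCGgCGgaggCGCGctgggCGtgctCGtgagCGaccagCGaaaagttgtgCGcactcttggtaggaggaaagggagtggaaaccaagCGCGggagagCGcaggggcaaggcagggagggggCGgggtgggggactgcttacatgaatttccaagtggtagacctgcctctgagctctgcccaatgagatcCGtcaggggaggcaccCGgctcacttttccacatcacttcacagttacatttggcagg
Pcdh9: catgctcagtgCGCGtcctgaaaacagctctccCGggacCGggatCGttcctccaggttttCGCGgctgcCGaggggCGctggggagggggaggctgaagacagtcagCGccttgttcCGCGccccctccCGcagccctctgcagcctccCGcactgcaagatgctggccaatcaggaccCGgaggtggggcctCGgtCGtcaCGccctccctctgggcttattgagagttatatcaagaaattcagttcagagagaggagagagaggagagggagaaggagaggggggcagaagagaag
Cdh10: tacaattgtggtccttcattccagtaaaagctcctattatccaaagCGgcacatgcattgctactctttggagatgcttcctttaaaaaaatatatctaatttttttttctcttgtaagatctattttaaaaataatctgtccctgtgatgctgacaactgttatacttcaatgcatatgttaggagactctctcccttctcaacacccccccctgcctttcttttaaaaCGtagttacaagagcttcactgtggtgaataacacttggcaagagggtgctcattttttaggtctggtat
The Pcdh10 window lies at chr3:45378148-45378447 on the plus strand, the Cdh8 window at chr8:99416422-99416721 on the minus strand, the Pcdh9 window at chr14:93890630-93890929 on the minus strand and the Cdh10 window at chr15:18820079-18820378 on the plus strand. CG occurred 24 times in the Pcdh10 window, 21 times in that of Cdh8, 18 times in that of Pcdh9 and 2 times in that of Cdh10. The median was 12 CG over the 21 members (range 2 to 38) and 7 over all 32851 promoter windows. The share of G and C was 62.3%, 62.3%, 62.7% and 37.7% in the 4 windows, against a median of 52.7% for all windows. The GC box GGGCGG, searched on both strands, was in the Pcdh10 and Cdh8 windows and in 8 of the 21 members. It was in 35.7% of all windows. A core of the motif of the insulator protein CTCF, CC and after any 3 letters AGGNGGC, on either strand, was in the windows of Cdh7 and Pcdh15 only among the members and in 3.43% of all windows. The motif TATAAA was in those of Pcdh15 and Pcdh8 and in 13.6% of all windows.

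Over the 21 genes with a known strand, 37 sham and 36 MCAO loops had an anchor on a promoter window or within 2.5 kb of it. The 5′ ends were anchors of 39 loops in each list, and the 3′ ends of 18 in sham and 12 in MCAO. Such counts over all genes are not given here, and loops at either end of all autosomal genes had a ratio of 1.24. For Cdh12, Cdh18 and Pcdh15 the listed promoter lay 663, 488 and 726 kb inside the outermost gene end. Loops at that promoter count here as gene-body loops unless their other anchor lay at a gene end. Of the promoter loops, 3 in sham and 1 in MCAO were gene-body loops.

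The cadherin and protocadherin genes together had slightly fewer loops in MCAO, with fewer in gene bodies and slightly more at gene ends. Loops at their ends numbered 63 in sham and 68 in MCAO (ratio 1.08, 0.755 to 1.55), while loops inside the genes numbered 66 and 51 (ratio 0.773, 0.525 to 1.13). Both intervals include 1. Over all autosomal genes, gene-end loops numbered 7614 and 9409 (ratio 1.24) and gene-body loops 3580 and 3358 (ratio 0.938). The intervals of the member ratios include these values as well. For genes of at least 100 kb the gene-end ratio was 1.21 and the gene-body ratio 0.947. Ends and bodies together gave 129 distinct member loops in sham and 119 in MCAO (ratio 0.922, 0.713 to 1.19). The PETs of these loops summed to 2295 and 2009, or 65.6 and 49.5 per 1000000 PETs of the library, a ratio of 0.755. The same ratio over all autosomal loops was 0.930. The gene-end ratio turned to 0.730 when MCAO loops needed 12 PETs, the whole number next above the sham minimum after scaling for depth, and to 0.889 with lists of equal length, so its direction was not settled.

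These genes are long and lie among few others. Their median length was 123 kb, against 17.5 kb for all autosomal genes, and 17 members had at least 100 kb. A loop was present at 93.9% of members, at 66.5% of all genes and at 96.2% of genes of at least 100 kb. Most member loops had their midpoint in a 1 Mb window with 0 to 2 genes, where 108 sham and 85 MCAO loops lay (ratio 0.787). All autosomal loops in such windows went from 5351 to 4320 (ratio 0.807). Gene-body loops there numbered 59 and 36 for members (ratio 0.610, 0.392 to 0.939) and 1524 and 1163 for all genes (ratio 0.763). In windows of 3 or more genes the member loops numbered 21 and 34 (ratio 1.62), and all loops 9159 and 11064 (ratio 1.21). Gene density therefore moved with the member counts, and its part in them was not tested.

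More members had fewer loops in MCAO than had more, and with at least 15 PETs per loop this turned, to 7 members with fewer and 9 with more. Counting ends and bodies, 11 of 31 members with a loop had more in MCAO, where 46.9% of all autosomal genes with a loop did, and 14 had fewer, where 33.5% did. The other 6 had equal numbers. Among the 17 members of at least 100 kb, 4 had more and 10 had fewer, against 46.6% and 35.7% of genes of that length. A difference of at least 3 loops upward was seen at 4 members, Cdh11, Cdh4, Cdh23 and Pcdh1 (background 6.81%, and 15.1% of long genes). A difference of at least 3 downward was seen at 6 members, Cdh18, Pcdh7, Pcdh9, Cdh12, Cdh8 and Cdh6 (background 3.78%, and 12.4% of long genes). Most of these differences shrank with at least 15 PETs per loop. MCAO minus sham was then 4 at Cdh11, 1 at Cdh4, 2 at Cdh23 and 0 at Pcdh1. It was -3 at Cdh18, -2 at Pcdh7, 1 at Cdh8 and 0 at Pcdh9, Cdh12 and Cdh6. Among loops on the better side of each list's median p-value, Cdh23 turned to -2 and Cdh6 to 1. At gene ends alone, 11 of 28 members had more (background 46.7%) and 10 fewer (33.4%). In gene bodies 9 of 21 had more (45.0%) and 10 fewer (38.4%).

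**Figure D1:**
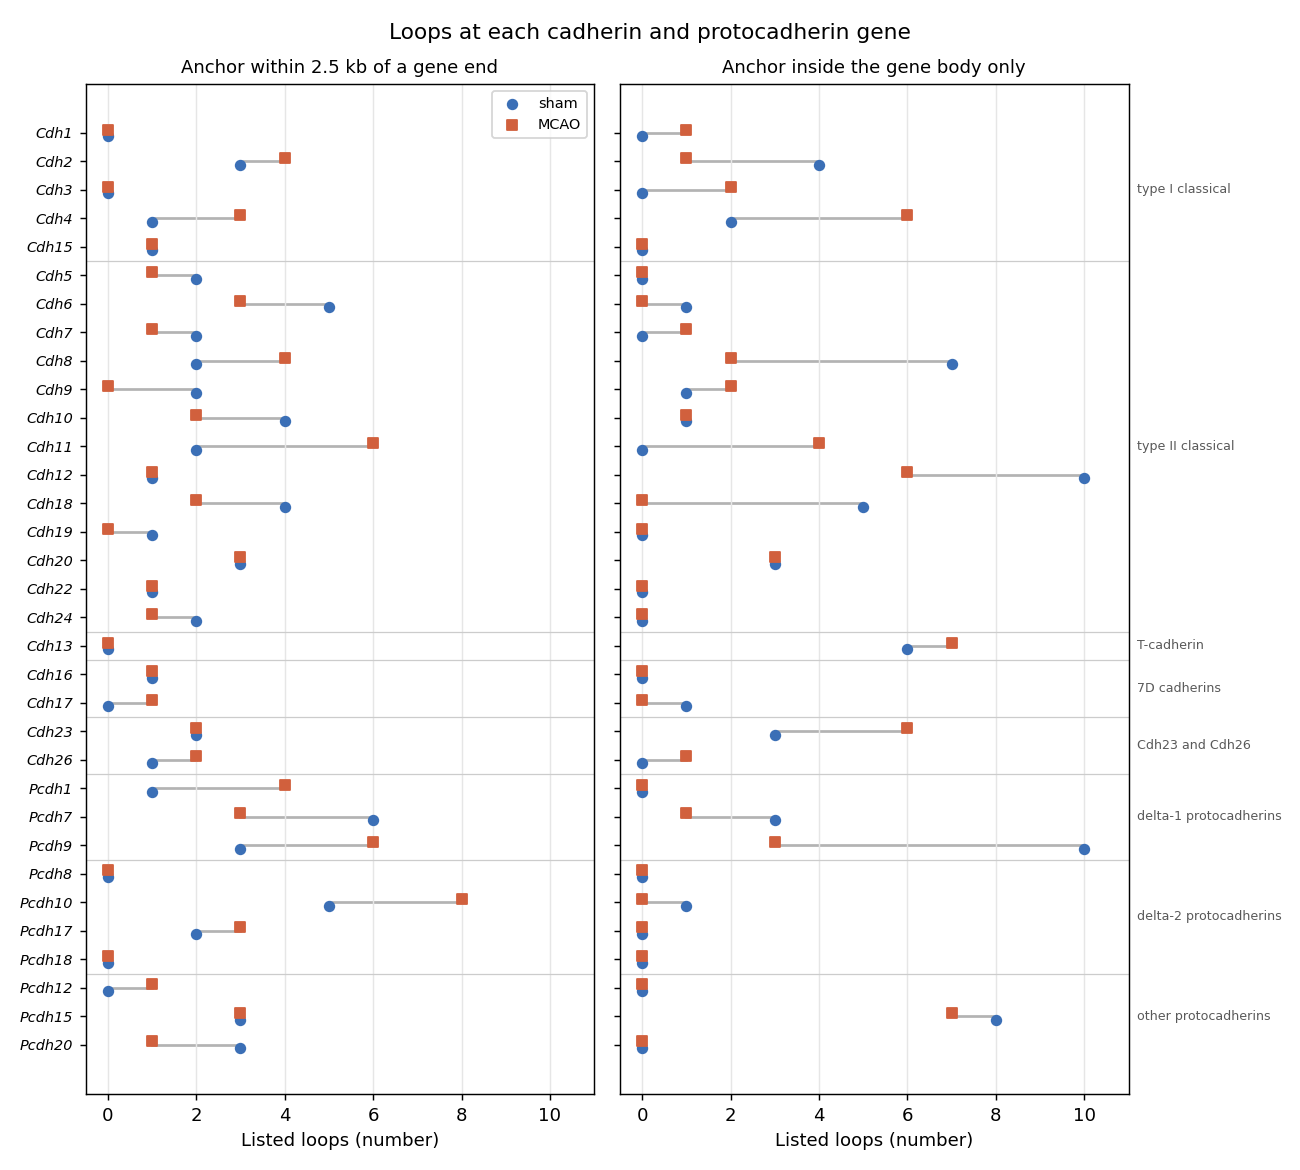
Number of listed loops (x axis) at each of the 33 genes (rows, grouped by family) with an anchor within 2.5 kb of a gene end (left) or inside the gene body only (right); circles are sham, squares MCAO, and each point is the count of 1 list. Cdh11 and Cdh4 have more loops in MCAO in both panels (Cdh11 2 and 6 at ends and 0 and 4 in the body), while the gene-body counts of Pcdh9 (10 and 3) and Cdh18 (5 and 0) are higher in sham.

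Among type I classical cadherins, loops numbered 11 in sham and 17 in MCAO. Cdh2 (N-cadherin), the main classical cadherin of neural tissue, had 3 gene-end and 4 gene-body loops in sham and 4 and 1 in MCAO. Its strongest MCAO loop had 45 PETs and ran 586 kb from the upper end into the desert below the gene, whereas no sham loop of Cdh2 had more than 16 PETs. In MCAO it also reached the neighbouring gene Chst9, a sulfotransferase, in loops of 1056 and 1245 kb with 12 and 14 PETs. None of the Cdh2 loops had a partner in the other list, that is, a loop with both midpoints within 1 anchor width of its own. Cdh4 (R-cadherin), also expressed in brain and retina, went from 3 loops to 9, with 40 and 115 PETs. All but 1 of its loops in MCAO reached below the gene, in spans of 507 to 1207 kb, toward the desert of Cdh26. Cdh15 (M-cadherin, of muscle) had 1 loop in each list.

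Cdh1 (E-cadherin) and Cdh3 (P-cadherin), the epithelial cadherins that lie next to each other on chromosome 8, had no listed loop in sham. In MCAO a loop of 104 kb with 10 PETs joined the bodies of both genes. Cdh3 had a second loop with 10 PETs, so each of these loops stood at the minimum of the lists.

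Type II cadherins made up the largest family, and 9 of 13 had fewer loops in MCAO, beside 33.5% of all autosomal genes with a loop and 35.7% of those of at least 100 kb. Their loops numbered 59 in sham and 44 in MCAO (ratio 0.746, 0.493 to 1.12), with 1 gene higher and 3 equal. With at least 15 PETs per loop the direction turned, to 20 in sham and 24 in MCAO, with 4 genes higher and 1 lower. The excess of sham loops thus lay among those of 10 to 14 PETs.

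On chromosome 15, 5 of these genes stand in a row with no other protein-coding gene between them, in the order Cdh6, Cdh9, Cdh10, Cdh12 and Cdh18, and all 5 had fewer loops in MCAO. Together they had 34 loops in sham and 17 in MCAO (ratio 0.50, 0.262 to 0.920), and 513 and 255 PETs. Chromosome 15 as a whole went from 647 to 726 loops (ratio 1.12, 1.01 to 1.25). In 1 Mb windows of 0 to 2 genes on all autosomes the ratio was 0.807 for all loops, 1.06 for gene-end loops and 0.763 for gene-body loops. The interval of the row includes 0.807 and 0.763. With at least 15 PETs the row had 11 and 8 loops, and with loops on the better side of each list's median p-value 8 and 7. The row was singled out after its values were seen.

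Cdh18 had 9 loops in sham and 2 in MCAO, and Cdh12 had 11 and 7. Both are neuronal type II cadherins. The gene body of Cdh18 (chr15:22548898-23477491) held 5 loops of 129 to 611 kb with 11 to 24 PETs in sham and none in MCAO. What remained were 2 gene-end loops with partners, 1 of 932 kb in sham and 905 kb in MCAO into the desert above the gene with 19 PETs in each list, and 1 of 389 and 349 kb inside the gene with 11 PETs in each. At Cdh12, most loops lay inside the gene, which spans 1150 kb. Its body had 10 loops in sham, the strongest with 32 PETs over 517 kb, and 6 in MCAO, the strongest with 27 PETs over 1287 kb into the desert below.

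Cdh6, first described in kidney, had 6 loops and 3, Cdh9, a synaptic cadherin of the hippocampus, 3 and 2, and Cdh10 5 and 3. A Cdh6 loop of 673 kb in sham and 667 kb in MCAO had 36 and 27 PETs. The loop from the lower end of Cdh10 into the desert above it had 36 PETs over 436 kb in sham and 11 over 458 kb in MCAO. A sham loop of 1731 kb with 14 PETs ran from Cdh10 to within 242 kb of Cdh9. The longest loop of the row, also in sham, ran 2017 kb from the body of Cdh12 into the desert below, with 19 PETs, to 477 kb from Cdh10. No loop of either list joined 2 genes of the row.

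Cdh11 (OB-cadherin), a type II cadherin of mesenchyme and brain, had the largest excess of loops in MCAO of all members, 2 in sham and 10 in MCAO (ratio 5.00, 1.07 to 46.9). Its summed PETs differed less, at 176 and 211. In sham a loop of 153 PETs, the strongest of all member loops, joined an anchor of 195 kb (chr8:102632651-102827777), which covered the upper end of the gene (chr8:102632095-102785493) and lay within 2.5 kb of its lower end, to a site 70.8 kb before Cdh5. In MCAO 5 loops ran from the gene into that same desert, with spans of 552 to 1245 kb and 17 to 62 PETs. Both MCAO loops of 1245 and 1135 kb had the sham loop as partner. On the other side, into the desert toward Cdh8, 1 loop ran from the gene in sham and 5 in MCAO. The median anchor width at Cdh11 was 85.6 kb in sham and 37.5 kb in MCAO. Toward Cdh5 a broad anchor in sham thus faced several narrower ones in MCAO, and its part in the number of loops was not tested. With at least 15 PETs Cdh11 had 2 and 6 loops. The interval of its ratio included 1 with at least 15 PETs (0.536 to 30.4), with an MCAO minimum of 12 PETs (0.666 to 34.5) and with lists of equal length (0.798 to 38.7), and the gene was named for its difference.

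Cdh8, a cadherin of thalamic and cortical circuits that neighbours Cdh11, had 9 loops in sham and 6 in MCAO. Gene-end loops went from 2 to 4 and gene-body loops from 7 to 2. Its start had a loop of 3263 kb with 13 PETs in sham and of 3440 kb with 21 PETs in MCAO. Both crossed almost the whole desert, to 270 and 85.2 kb from Got2, an aminotransferase of mitochondria, yet their far anchors lay too far apart to be partners. Cdh5 (VE-cadherin), the endothelial cadherin of vessel junctions, had 2 gene-end loops in sham, with 14 and 17 PETs, and 1 in MCAO, with 31 PETs.

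**Figure D2:**
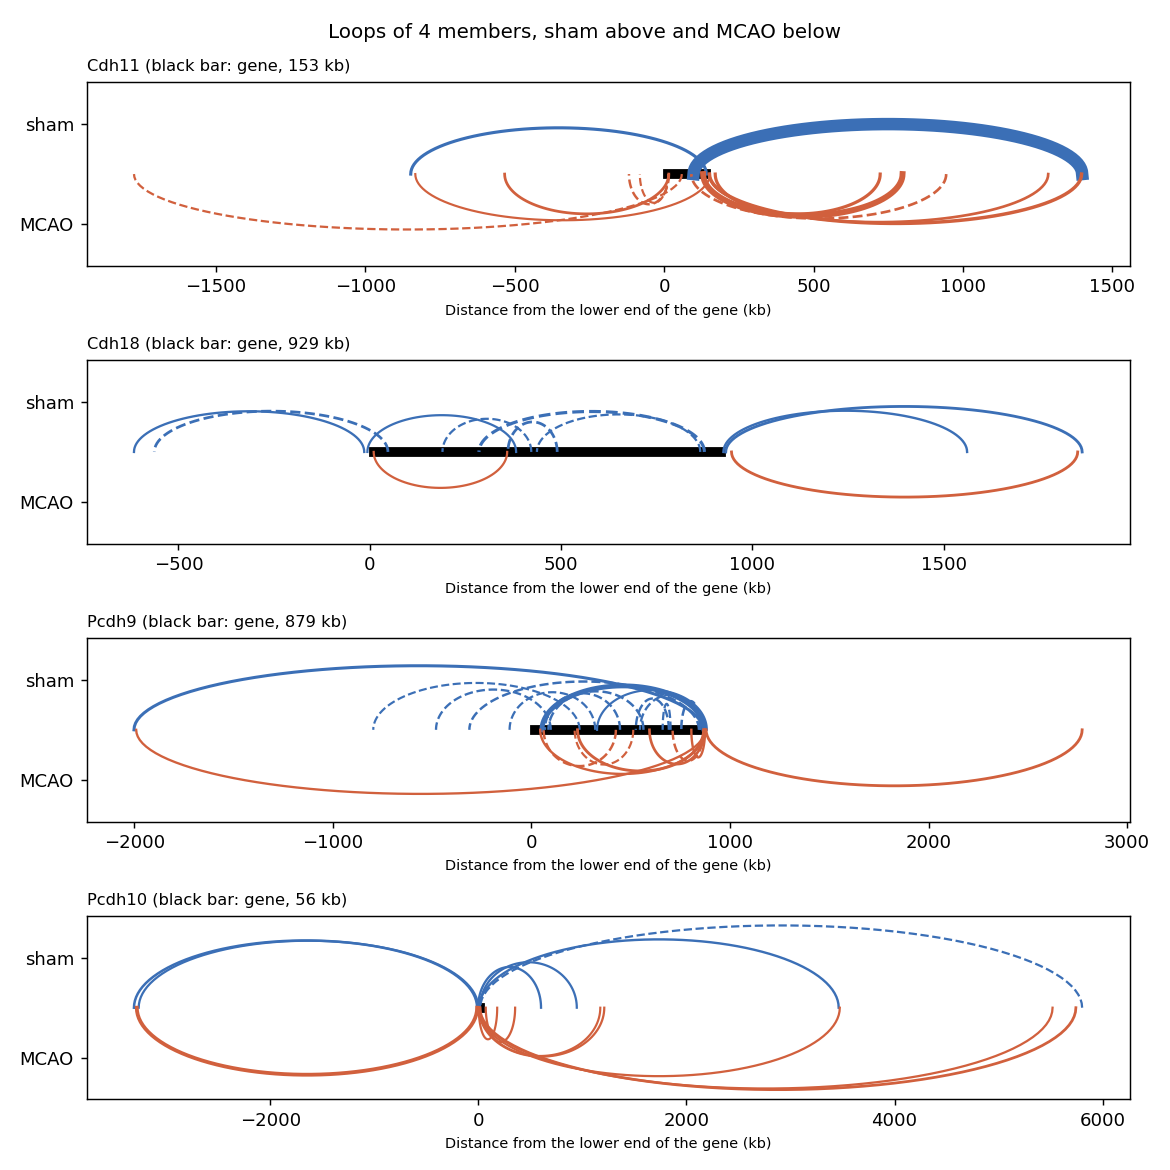
Loops of Cdh11, Cdh18, Pcdh9 and Pcdh10 as arcs between anchor midpoints, with distance from the lower end of the gene in kb (x axis); sham arcs are above and MCAO arcs below, solid lines are gene-end and dashed lines gene-body loops, and lines are thicker with more PETs. Arc height grows with span. Cdh11 shows 1 thick sham arc of 153 PETs facing several thinner MCAO arcs, and the dashed arcs of Cdh18 are seen in sham alone.

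Most loops of Cdh20, a type II cadherin of the nervous system, had a partner. It had 6 in each list, and 4 of 6 in sham and 5 of 6 in MCAO had a partner. From its upper end a loop ran into the desert below with 74 PETs over 1154 kb in sham and 42 PETs over 1160 kb in MCAO. A loop of 960 and 956 kb had 57 and 20 PETs. Cdh7 shared a loop of 2347 and 2371 kb, with 14 and 21 PETs, that ended 29.8 and 18.6 kb from Serpinb8. Cdh22 had 1 loop in each list to Cd40, an immune receptor gene, with 10 PETs in sham and 31 in MCAO. Cdh19, a cadherin of the Schwann cell lineage, had 1 loop in sham with 11 PETs and none in MCAO. Cdh24, whose ends lie close to other genes, had 2 and 1.

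Cdh13 (T-cadherin) has no cytoplasmic domain and is held in the membrane by a lipid anchor. Its gene of 1185 kb had 6 loops in sham and 7 in MCAO, all in the gene body. A shared loop of 520 and 569 kb inside the gene had 40 PETs in sham and 11 in MCAO. The longest, of 1418 kb with 16 PETs, reached 7.19 kb from Plcg2, a phospholipase gene of microglia and other immune cells, in MCAO.

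Cdh16 and Cdh17, the cadherins with 7 outer domains known from kidney and gut, had 1 loop each in each list. The sham loop at Cdh16 was among the strongest, with 82 PETs over 600.1 kb, but its anchors also covered Ciao2b, Pdp2 and Rrad. Its partner in MCAO had 18 PETs over 556 kb and no anchor at Cdh16. These values cannot be credited to Cdh16 alone.

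Cdh23, which forms the upper part of the tip links of hair cells, went from 5 loops to 8, with 75 and 154 PETs. Its strongest loop joined the lower end, where the anchor also covered Psap, to the gene Slc29a3, with 23 PETs over 440 kb in sham and 57 PETs over 454 kb in MCAO. Several gene-body anchors also covered Vsir, which lies inside Cdh23, so that these loops cannot be assigned to either gene. Pcdh15, which forms the lower part of the same tip links, had 11 loops and 10. Its body loops inside the gene of 1554 kb reached 1492 kb in sham with 15 PETs. A loop between its lower end and its body had 39 PETs over 1084 kb in sham and 33 over 1104 kb in MCAO.

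Cdh26 went from 1 loop to 3, and 2 of the MCAO loops joined it to Cdh4. They spanned 1207 kb with 10 PETs and 978 kb with 15 PETs. Sham loops of Cdh4 over 1313 and 1297 kb, with 11 PETs each, ended 29.1 and 96.2 kb from Cdh26, outside the distance that counts as a gene end. With the loop between Cdh1 and Cdh3, the MCAO loops between Cdh4 and Cdh26 were the only loops between members, all 3 in MCAO.

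Of the delta-1 protocadherins, Pcdh9 had the most loops of all members in sham and over both lists together, 13 in sham and 9 in MCAO, where Cdh11 and Pcdh15 had 10 each. Its gene-end loops numbered 3 and 6 and its gene-body loops 10 and 3. All 6 MCAO end loops held the upper end of the gene (chr14:93013700-93892834), where the promoter lies. A loop of 2866 kb in sham and 2865 kb in MCAO, with 22 and 12 PETs, reached 2002 and 1991 kb into the desert below. A loop along most of the gene, of 818 and 830 kb, had 48 PETs in sham and 13 in MCAO. A loop of 1894 kb into the desert above the gene, with 19 PETs, was in the MCAO list alone. The gene-body loops of Pcdh9 in sham had 10 to 15 PETs each.

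Pcdh7 went from 9 loops to 4, with 134 and 52 PETs. From its lower end, where the promoter lies, a shared loop of 1030 and 1010 kb had 33 PETs in sham and 14 in MCAO. Its sham loops of 1496 and 2432 kb below the gene had 13 and 10 PETs, and its MCAO loop of 3471 kb had 10. Pcdh1 lies among many genes and had 1 loop in sham and 4 in MCAO, with spans of 37.8 to 198 kb.

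The delta-2 protocadherins, which recruit actin regulators, had the longest loops. Their median span was 3113 kb in sham and 2856 kb in MCAO, with 8 and 11 loops, all at Pcdh10 and Pcdh17. Pcdh10 (chr3:45378398-45434579), a protocadherin of striatal and cortical projections, had 6 loops in sham and 8 in MCAO. Below the gene, its start met a site near D3Ertd751e in both lists. The sham loops of 3263 and 3297 kb, with 11 and 15 PETs, ended 311 and 266 kb from that gene, and the MCAO loop of 3271 kb, with 33 PETs, ended 293 kb from it. Above the gene, a loop of 3455 kb in sham and 3477 kb in MCAO with 13 and 11 PETs passed Pabpc4l and ended 902 and 891 kb before Pcdh18. The longest loops ran to the region before Noct, a gene of the circadian clock, over 5785 kb with 11 PETs in sham and over 5511 and 5727 kb with 11 and 18 PETs in MCAO. The sham loop had its anchor in the gene body and was no partner of these.

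Pcdh17, a protocadherin of corticostriatal synapses, had sham loops of 2303 kb to Diaph3 with 22 PETs and of 2962 kb to Tdrd3 with 17 PETs. In MCAO it had a loop of 2856 kb that ended 110 kb from Tdrd3 and a loop of 4188 kb to 235 kb from Olfm4, each with 10 PETs. Pcdh8 and Pcdh18 had no loop in either list. Of the remaining protocadherins, Pcdh20 had 3 loops in sham and 1 in MCAO. Its loop to Tdrd3 had 50 PETs over 979 kb in sham and 73 PETs over 948 kb in MCAO, the strongest member loop of the MCAO list. Pcdh12, an endothelial protocadherin, had 1 loop in MCAO with 31 PETs, and its anchor also covered Rnf14.

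Member loops were long. The median span of gene-end loops was 605 kb in sham (553 to 818) and 644 kb in MCAO (454 to 910), against 359 and 290 kb for all autosomal gene-end loops. Among gene-end loops in windows of 0 to 2 genes it was 726 and 807 kb for members and 810 and 726 kb for all genes, so spans were nearer to those of other genes in such surroundings. Gene-body loops had a median of 458 and 454 kb, against 311 and 279 kb for all. In windows of 0 to 2 genes the gene-body median was 482 and 548 kb for members and 536 and 499 kb for all genes. Loops over 1 Mb made up 20.9% of member loops in sham and 24.4% in MCAO, and 11.6% and 9.22% of all loops. In windows of 0 to 2 genes they made up 23.1% and 31.8% of member loops and 24.2% and 24.0% of all loops, so long loops were not particular to members. The medians of all gene-end loops were lower in MCAO, whereas those of member loops differed by less than their counting intervals.

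**Figure D3:**
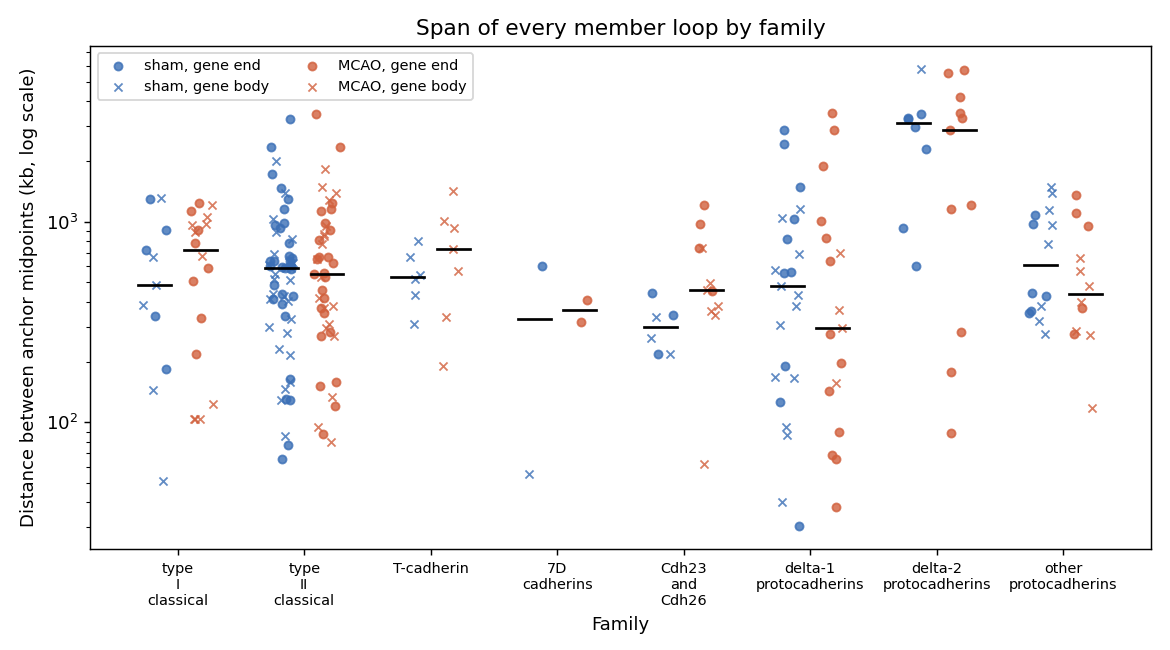
Span of every member loop (y axis, kb, log scale) by family (x axis), sham in blue and MCAO in orange; circles are gene-end loops, crosses gene-body loops, black lines the median of each family in 1 list, and points are shifted sideways at random. The delta-2 protocadherins have the longest spans, with medians of 3113 kb in sham and 2856 kb in MCAO, and all their points are loops of Pcdh10 or Pcdh17.

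A partner in the other list was found for 28.7% of member loops in sham (37 of 129, 21.1% to 37.3%) and 30.3% in MCAO (36 of 119, 22.2% to 39.3%). Over all autosomal loops the shares were 27.7% and 26.7%. Gene-end loops of members had a partner in 41.3% and 38.2% of cases and gene-body loops in 16.7% and 19.6%. Over all autosomal genes these shares were 36.4% and 29.9% at gene ends and 21.6% and 23.9% in gene bodies. A higher share at ends than in bodies was therefore not particular to members. Most member loops thus had no listed partner, and a partner with under 10 PETs would not be listed. For 33 loops the partnership was mutual, and PETs per 1000000 of the library could be compared. They were lower in MCAO in 23 and higher in 10. The median log2 ratio was -0.45, with quartiles of -1.42 and 0.14, against -0.21 over all 3679 mutual autosomal pairs. Of the 33, a Cdh11 loop had the lowest ratio, with 153 and 28 PETs, and the Cdh22 loop the highest, with 10 and 31. Reads at the anchors, per kb and scaled for depth in the same way, had a median log2 ratio below 0 as well, but not at each loop. Their median log2 ratio was -0.25 at the 33 member pairs, higher in MCAO in 5 of them, and -0.05 over all pairs. At the Cdh11 loop with the lowest PET ratio (log2 -2.66) it was 0.40, and at the Cdh22 loop with the highest (log2 1.42) it was -0.07. Its part in the PET ratios was not tested.

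**Figure D4:**
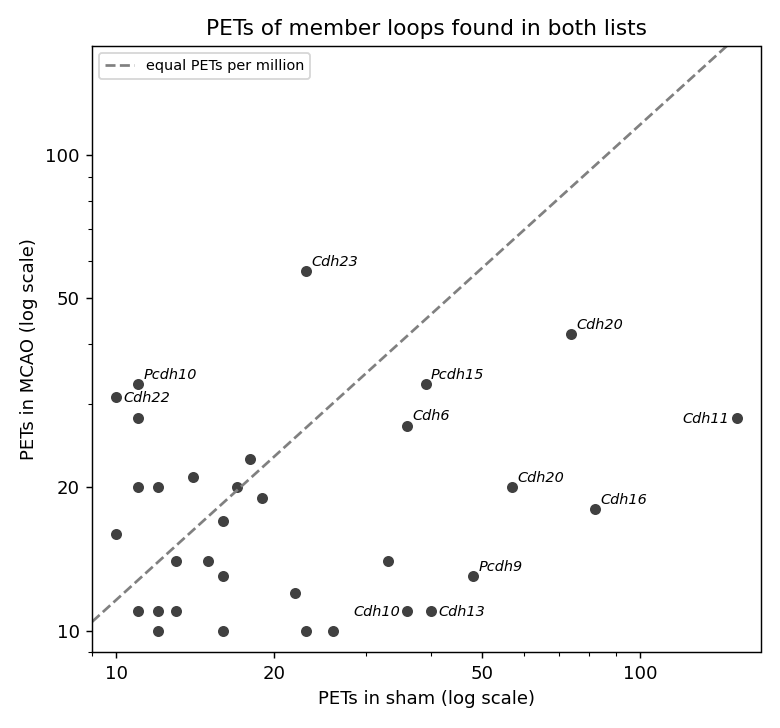
PETs in sham (x axis) and MCAO (y axis), both on log scales, for the 33 member loops with a mutual partner; each point is a loop, the dashed line marks equal PETs after scaling for depth, and loops with at least 36 PETs in sham or 30 in MCAO carry the gene name. Of the points, 23 lie below the line, among them Cdh11 with 153 and 28 PETs, and 10 above it, among them Cdh23 with 23 and 57.

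Gene deserts were defined as the stretch between a member and the next protein-coding gene if it measured at least 500 kb. Such deserts were found beside 19 members, on both sides of 15, and made up 26 distinct deserts of 608 to 4542 kb and 60.4 Mb in all. Loops with both anchors inside them numbered 222 in sham and 130 in MCAO (ratio 0.586, 0.468 to 0.730), or 3.68 and 2.15 per Mb. The other 574 autosomal deserts of that length held 1906 and 1316 loops (ratio 0.690, 0.643 to 0.741), or 2.92 and 2.02 per Mb. Loops were therefore fewer in MCAO in deserts in general, and the intervals of both ratios overlap. Of 23 member deserts with a loop, 18 had fewer loops in MCAO (78.3%) and 5 had more. Over all 505 autosomal deserts with a loop, 57.6% had fewer and 29.3% more.

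The desert between Olfm4 and Pcdh17 went from 21 loops to 7, that between Pcdh20 and Pcdh9 from 21 to 6, and that between Cdh9 and Cdh10 from 14 to 3. Between Cdh8 and Cdh11 the numbers were 16 and 6, and between D3Ertd751e and Pcdh10 they were 16 and 7. In the desert between Cdh26 and 4930591A17Rik they were 1 and 6. The deserts between Cdh11 and Cdh5, Pcdh20 and Tdrd3, Cdh7 and Serpinb8, and Cdh2 and Chst9 were the others with more loops in MCAO. The 4 deserts between genes of the chromosome 15 row together held 34 and 18.

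**Figure D5:**
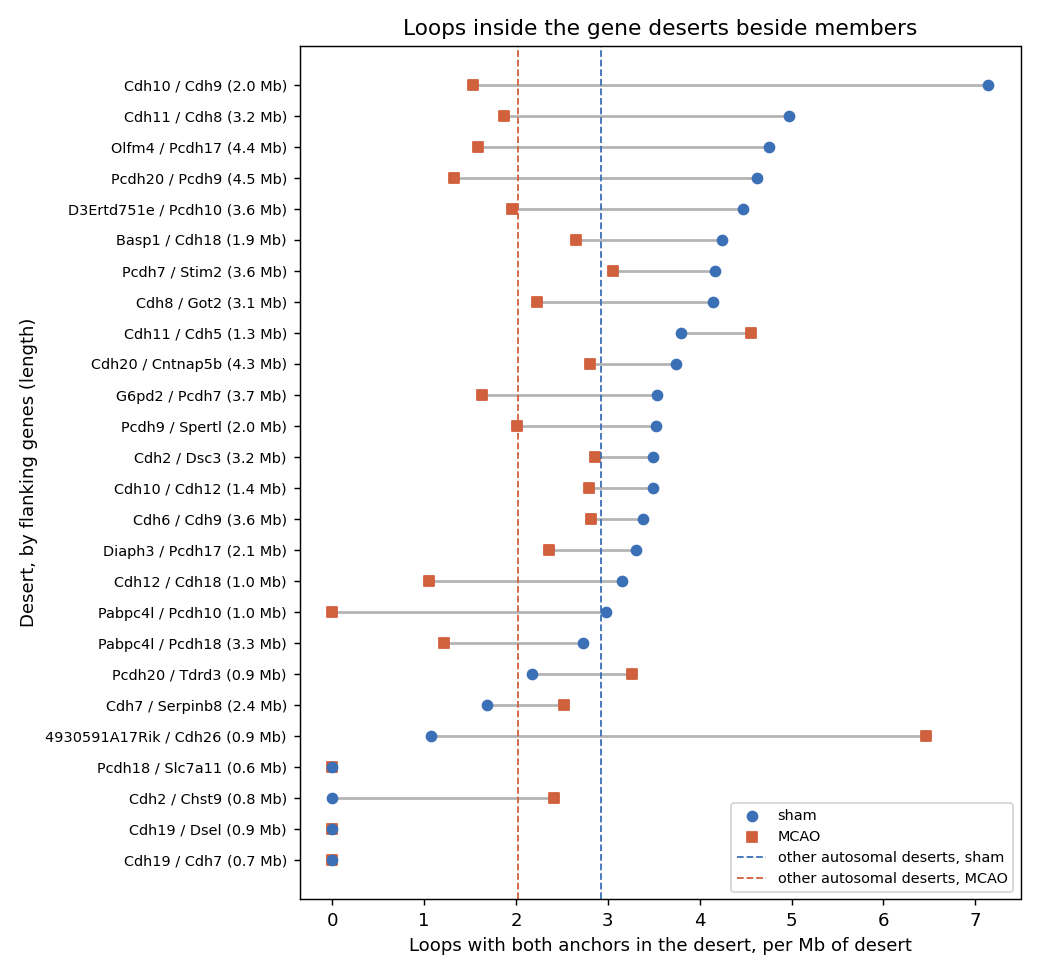
Loops with both anchors in a desert, per Mb of desert (x axis), for the 26 deserts beside members (rows, named by the flanking genes, with length), circles for sham and squares for MCAO; dashed lines mark the 574 other autosomal deserts, at 2.92 per Mb in sham and 2.02 in MCAO. Of the deserts, 18 have the square to the left of the circle, and that between Cdh26 and 4930591A17Rik has it farthest to the right.

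Loops inside member deserts were also shorter in MCAO. The median span inside member deserts was 473 kb in sham and 328 kb in MCAO, against 440 and 369 kb in the other deserts. Loops over 1 Mb made up 22 of 222 in sham (9.91%, 6.32% to 14.6%) and 5 of 130 in MCAO (3.85%, 1.26% to 8.75%). In the other deserts they made up 8.71% in sham and 6.99% in MCAO. The longest in member deserts spanned 3976 kb between Olfm4 and Pcdh17 in sham, with 12 PETs, and 1643 kb between Stim2 and Pcdh7 in MCAO, with 12 PETs. The strongest lay near Olfm4, with 57 PETs over 487 kb in sham and 60 PETs over 534 kb in its MCAO partner. A partner was found for 4.50% of desert loops in sham and 9.23% in MCAO, below the 9.65% and 13.5% of the other deserts. Most loops in member deserts were weak, and 51.8% in sham and 53.1% in MCAO had 10 or 11 PETs, against 50.5% and 46.5% in the other deserts. Among loops on the better side of each list's median p-value, the numbers in member deserts were 35 and 33 (ratio 0.943), while the ratio in the other deserts was 0.612. With at least 15 PETs the numbers in member deserts were 49 and 33 (ratio 0.673, 0.420 to 1.07), and the ratio in the other deserts was 0.706.

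Loops from a member into its own desert numbered 57 in sham and 42 in MCAO (ratio 0.737, 0.483 to 1.12). With at least 15 PETs this turned to 21 and 22. Loops that crossed a whole desert numbered 5 and 11 (ratio 2.20, 0.705 to 8.08). Pcdh10 gave 2 and 5 of these, Pcdh17 2 and 1, Pcdh20 1 and 1, Cdh2 0 and 2, and Cdh26 0 and 2. With lists of equal length the crossing loops numbered 5 and 4.

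Genes that work with cadherins were counted in the same way from 3 lists, beside the 46.9% of all autosomal genes with a loop that had more in MCAO and the 33.5% that had fewer. Among 11 catenins and linkers, which tie cadherins to actin, 10 had a loop, 5 had more in MCAO and 2 fewer, with 41 distinct loops in sham and 42 in MCAO. Ctnna2, the neuronal alpha-catenin, had 15 and 10, all in the gene body, Ctnna3 had 8 and 8, and Ctnnd2, the neuronal delta-catenin, 7 and 7. Among 17 other genes of the cadherin superfamily 14 had a loop, 7 had more and 5 fewer, with 40 and 45 distinct loops. Fat4, a giant cadherin of planar polarity, had 8 and 9, Fat3 6 and 8, and Clstn2, a calsyntenin of synapses, 5 and 6. Of 9 desmosomal cadherins 5 had a loop, 2 had more and 1 fewer. Their distinct loops numbered 6 in sham and 3 in MCAO, since some were counted at more than 1 gene. Dsc3, the gene at the far side of the desert above Cdh2, had 6 and 3, Dsc2 had 1 and 2, and Dsg2 and Dsg3 had 1 each in each list.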

How the data were processed

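Hi-C of frozen cortex was made with an Arima kit, and HiC-Pro and Bowtie2 were run on mm10; the submitters' processing notes state no version of either. No source used here names the loop caller, or the step at which the 3 cortices of a group were joined. The authors deposited 1 loop list per group. PETs per loop and reads per anchor are whole-number counts deposited without scaling for depth. The deposited signal called density is PETs per kb of anchor per 1000000 PETs, which gave the library totals. The deposited p-values were used to rank loops within a list, and the deposited enrichment ratio was not used.

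The members and lists were chosen with earlier results of these data known. Genes came from RefSeq (GRCm38.p6, 19 autosomes), and its gene table has no strand. Strand was taken from the promoter table for 21 members. A partner had both midpoints within 1 anchor width of the wider loop, which was checked on simulated loops. Named were the 6 members with most loops, the 5 with the largest difference each way, and the 3 strongest and 3 longest loops per list at members and in deserts; further members were described by family. Of each other list, the 3 genes with most loops were named, or 4 where 2 were tied. Alternatives were 15 PETs, an MCAO minimum of 12 PETs, lists cut by p-value, other windows at gene ends, other deserts and other partner rules. Python 3.11.15, pandas 2.3.3, numpy 2.4.6, SciPy 1.17.1 and matplotlib 3.10.9 were used. Protein sequences were not used here.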

Additional observations from a re-analysis of the deposited data

How the results depend on the processing

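Of 88 alternatives to 14 results, 73 kept the value and 15 moved. A value was kept if it lay within the counting interval, or within 1.5 times for tallies of members, which have no interval. Ratios whose interval includes 1 changed direction at gene ends (0.730 and 0.889), into deserts (1.05 with at least 15 PETs, and 1.14) and across deserts (0.80 with lists of equal length). With at least 15 PETs, 9 members had more, 17 equal and 7 fewer loops, so the direction of this tally turned. With an MCAO minimum of 12 PETs the ratio of member loops was 0.730 at gene ends and 0.394 in gene bodies, 4 members had more loops, and the ratio within member deserts was 0.275. Under that minimum the ratios over all loops, gene ends, gene bodies and other deserts were 0.660, 0.829, 0.513 and 0.369. With loops on the better side of each list's median p-value, the gene-body ratio was 0.478, the median gene-body span 335 kb in sham and 344 kb in MCAO, 7 members had more and 15 equal loops, and ratios were 1.14 into and 0.943 within deserts. With partners within 0.5 anchor widths, 18.6% of sham and 19.3% of MCAO member loops had one. The ratio within member deserts stayed below 1 in all 6 alternatives (0.275 to 0.943). Its interval included 1 with at least 15 PETs (0.420 to 1.07) and on the better side of the median p-value (0.568 to 1.56). The ratio at gene ends lay between 0.730 and 1.26. The causes were not tested, except that fewer loops are counted under a higher minimum by construction. No paired analysis was possible because each group had 1 list. Loops under 10 PETs are not listed, so a gene without a loop in a list may have one just below that depth.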

Other observations

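On the X chromosome 2 further genes carry a matching symbol and lay outside the autosomal rule. Pcdh11x had 1 gene-end loop in sham and none in MCAO, and Pcdh19 had 1 gene-body loop in sham and none in MCAO.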
